A study of Mus musculus with 6 samples.

Results

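The 10 general macrophage identity genes Csf1r, Cd68, Aif1, Cd14, Fcgr3, Fcer1g, Tyrobp, Laptm5, Emr1 and Itgam were followed in mouse olfactory epithelium, the odour-sensing tissue of the nasal cavity. They were chosen by symbol, as genes that mark macrophages in general, with earlier results of these data known, and all 10 were found among 21881 symbols. The libraries came from NKCC1-/- mice (KO), which lack NKCC1, the cotransporter of sodium, potassium and chloride whose gene is Slc12a2, and from wildtype mice (WT), all of the NMRI strain and with no further allele or treatment in the labels. Each genotype had 3 libraries, and every library was a pool: mixed pools held 2 epithelia from either sex, while 3 mice went into each male or female pool. The labels give neither the age of the mice nor the part of the gene that was deleted, and they do not say whether any mouse was in more than 1 pool.

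Macrophages are tissue phagocytes that clear dying cells, present antigen and shape repair, and the olfactory epithelium, whose neurons turn over throughout life, holds a resident population. Their survival depends on signals through the CSF1 receptor. They sense antibody-coated material through Fc receptors, and bacterial lipopolysaccharide through CD14 together with TLR4. Many of their activating receptors have no signalling part of their own and pair with the adapters encoded by Fcer1g and Tyrobp, whose cytoplasmic tails recruit the kinase Syk. The transcription factor PU.1 is known to drive many genes of the myeloid lineage.

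Values were FPKM, fragment numbers scaled by transcript length and library size, so levels of different genes are set side by side per length. The depth, estimated from the low values, was about 3940000, 13280000 and 11440000 fragments in the mixed, male and female KO pools and 3500000, 14300000 and 11080000 in the WT ones. The 10 most abundant genes held 16.9 to 34.4% of the summed FPKM in KO libraries and 15.5 to 45.7% in WT libraries, with the highest share in the WT female library. The median FPKM of genes above 0 ran from 4.94 to 6.53 in KO libraries and from 4.21 to 7.79 in WT libraries, lowest in the WT female one. Slc12a2 was at 28.0, 16.1 and 18.0 FPKM in the mixed, male and female KO pools, against 83.3, 40.2 and 36.0 FPKM in the WT ones. The 7 markers of mature olfactory neurons summed to 2861 to 4705 FPKM in KO libraries and 4375 to 7330 FPKM in WT libraries, so the markers of the labelled tissue were present in all 6.

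The core motif of PU.1 was looked for in the promoters, since that factor drives many myeloid genes. RefSeq promoters of build GRCm38.p6, reaching from 250 bases before to 50 bases after the start, were found for 6 of the 10 genes, namely Cd68, Aif1, Fcgr3, Fcer1g, Laptm5 and Itgam. The expression values were made on build mm9, so these coordinates belong to the sequences alone. The letters GAGGAA were searched on both strands, where the other strand reads TTCCTC. They were present in a promoter of 5 of the 6 genes and in 28.3% of 32851 mouse promoters of the same length. The first count is by gene and the second by promoter. Of the 6 genes only Fcgr3 had 2 promoters, both with a match. Below are 4 of these promoters, 5′ to 3′ on the gene's strand with matches in capitals: Fcgr3 and Aif1 as members whose KO libraries all lay above the WT libraries, and Itgam and Fcer1g as those with the smallest log2 changes.
Fcgr3 (chr1:171059354-171059653, minus strand): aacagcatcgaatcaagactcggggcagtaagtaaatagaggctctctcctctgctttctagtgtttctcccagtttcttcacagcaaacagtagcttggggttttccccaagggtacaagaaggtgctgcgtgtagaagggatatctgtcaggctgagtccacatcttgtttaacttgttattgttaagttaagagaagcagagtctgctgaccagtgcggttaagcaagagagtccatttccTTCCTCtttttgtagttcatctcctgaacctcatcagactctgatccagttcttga
Aif1 (chr17:35176003-35176302, minus strand): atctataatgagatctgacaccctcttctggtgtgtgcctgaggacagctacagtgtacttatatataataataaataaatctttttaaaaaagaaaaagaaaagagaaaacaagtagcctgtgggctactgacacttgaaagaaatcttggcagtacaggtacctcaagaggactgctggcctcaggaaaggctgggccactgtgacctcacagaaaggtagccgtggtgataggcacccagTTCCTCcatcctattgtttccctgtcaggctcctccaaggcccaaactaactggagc
Itgam (chr7:128062390-128062689, plus strand): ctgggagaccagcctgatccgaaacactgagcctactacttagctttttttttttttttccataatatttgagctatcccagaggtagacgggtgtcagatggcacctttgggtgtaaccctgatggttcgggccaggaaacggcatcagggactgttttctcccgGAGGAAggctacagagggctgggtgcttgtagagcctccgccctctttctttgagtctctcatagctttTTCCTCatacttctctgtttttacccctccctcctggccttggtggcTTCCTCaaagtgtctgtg
Fcer1g (chr1:171234300-171234599, minus strand): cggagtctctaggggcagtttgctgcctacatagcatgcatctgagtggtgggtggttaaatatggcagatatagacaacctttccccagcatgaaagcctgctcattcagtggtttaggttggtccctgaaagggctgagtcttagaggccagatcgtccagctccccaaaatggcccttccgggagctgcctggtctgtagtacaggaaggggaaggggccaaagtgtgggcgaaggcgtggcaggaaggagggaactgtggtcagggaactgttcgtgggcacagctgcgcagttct
The matches started 6 bases before the start of Fcgr3 and 7 bases before that of Aif1. Itgam held 3 matches and Fcer1g held 0, so the pair with the smallest changes had the most and the fewest matches among the 4 shown. A match is a stretch of letters, not a measured binding site.

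All 10 genes had a higher mean FPKM in KO than in WT epithelium, and none passed the test across all genes. The largest log2 changes were those of Cd14, Emr1, Fcgr3 and Aif1, and the smallest those of Itgam, Fcer1g and Tyrobp. The test was limma on log2(FPKM + 1) over the 15067 genes that averaged 0.5 FPKM or more, and a gene was called at a Benjamini-Hochberg adjusted p under 0.05. Over all genes 0.212% were called higher in KO, against 0 of the 10. At an unadjusted p under 0.05, 7 of the 10 were higher in KO and 0 lower, where 4.26% of all genes were higher. Their median log2 change was 0.68, with a range of 0.25 to 1.29, against a median of 0.01 over all genes tested and a 95th percentile of 0.56. In 6 of the 10 genes every KO library lay above every WT library, a separation met in 7.46% of all genes. In bulk tissue, more macrophages and more RNA of these genes per cell cannot be told apart.

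**Figure D1:**
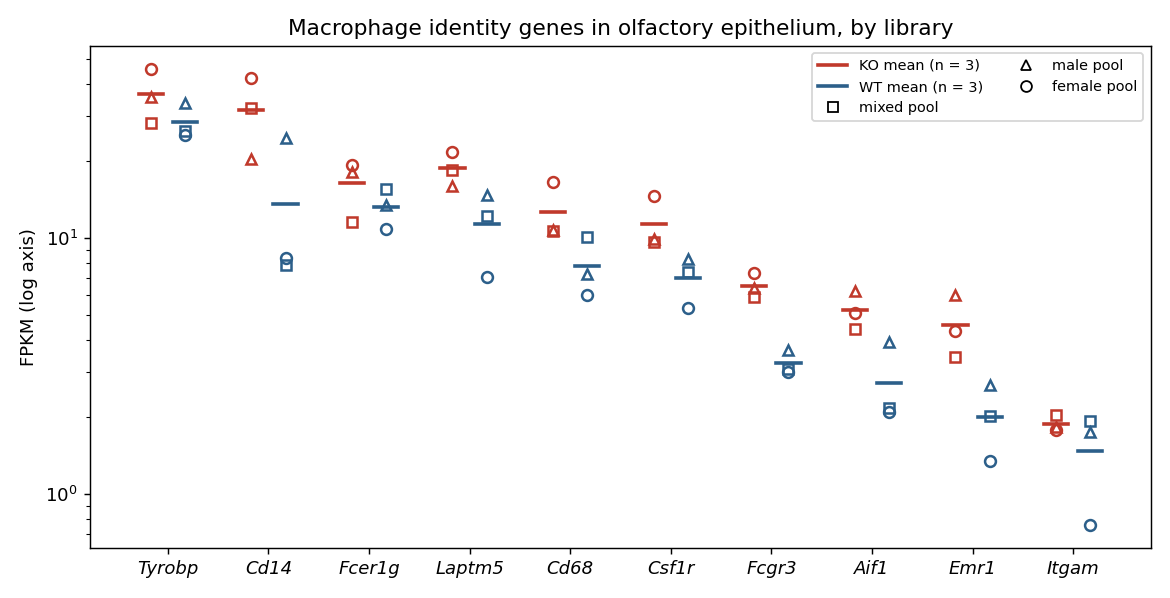
FPKM of the 10 macrophage genes (log axis) in each library, KO left of WT for each gene, with the 3 kinds of pool as symbols and group means as bars (n = 3 each). The KO points lie above all WT points in Laptm5, Cd68, Csf1r, Fcgr3, Aif1 and Emr1 and overlap them in the other 4 genes.

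The lineage receptor and the phagocyte markers came first. Csf1r, the receptor tyrosine kinase for CSF1 and IL-34, was at 9.63, 9.92 and 14.6 FPKM in the mixed, male and female KO pools, against 7.37, 8.32 and 5.32 FPKM in the WT ones. The groups did not overlap, and the female pools stood furthest apart. Its log2 change was 0.63 ± 0.27 (SE), with an adjusted p of 0.50 in limma. On annotated transcripts of release M21, 16.8% of the 101-nt windows of Csf1r are shared with Hmgxb3, so its value can hold fragments of that gene.

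Emr1 encodes F4/80, the adhesion receptor after which mouse macrophages are commonly stained. It stood at 3.43, 6.004 and 4.34 FPKM in the mixed, male and female KO pools and at 2.01, 2.66 and 1.35 FPKM in the WT ones. The lowest KO library was above the highest WT library, and the ratio of the means was 2.29. Its log2 change of 0.89 ± 0.28 (SE) had an adjusted p of 0.23.

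Aif1 encodes Iba1, a calcium-binding, actin-bundling protein of macrophages and microglia. It was at 4.41, 6.22 and 5.10 FPKM in the mixed, male and female KO pools, against 2.17, 3.93 and 2.09 FPKM in the WT ones. The male pool was the highest in both genotypes, and the groups did not overlap. The ratio of the means was 1.92 and the log2 change 0.77 ± 0.28 (SE), with an adjusted p of 0.34.

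The lysosomal members were Cd68, a glycoprotein of the LAMP family, and Laptm5, a transmembrane protein of haematopoietic cells. Cd68 was at 10.7, 10.8 and 16.6 FPKM in the mixed, male and female KO pools, against 10.1, 7.24 and 6.001 FPKM in the WT ones. The KO and WT mixed pools were nearly level, at a ratio of 1.06, while the female pools differed by a ratio of 2.77. Its log2 change was 0.64 ± 0.28 (SE), with an adjusted p of 0.50. Laptm5 was at 18.5, 16.0 and 21.8 FPKM in the mixed, male and female KO pools, against 12.2, 14.8 and 7.02 FPKM in the WT ones. Here too the groups did not overlap, and the male pools were closest, at a ratio of 1.09. The log2 change was 0.73 ± 0.28 (SE), with an adjusted p of 0.39, and it was 0.44 without the WT female library.

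The receptor for lipopolysaccharide had the widest swing between libraries. Cd14, which hands lipopolysaccharide to TLR4, was at 32.2, 20.5 and 42.3 FPKM in the mixed, male and female KO pools, against 7.88, 24.6 and 8.34 FPKM in the WT ones. The WT male library was above the KO male library, so the groups overlapped, while the mixed and female pools differed by ratios of 4.08 and 5.07. Its log2 change of 1.29 ± 0.39 (SE) was the largest of the 10, with an adjusted p of 0.20. Without the WT male library the change was 1.78 with an adjusted p of 0.024, and without the WT mixed library it was 1.02 with an adjusted p of 0.034, so the call changed with 1 library left out. In a limma model of genotype by female share of the pool, the adjusted p for Cd14 was 0.56, and 0 of the 10 genes had an adjusted p under 0.05 for that term, where 19 of all genes did. At an unadjusted p under 0.05 for the same term stood Cd14 among the 10 and 626 of all genes.

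The Fc receptor and the signalling adapters are given side by side, with no test of the difference between their changes. Fcgr3, a low-affinity activating receptor for IgG, was at 5.88, 6.38 and 7.32 FPKM in the mixed, male and female KO pools, against 3.07, 3.66 and 2.997 FPKM in the WT ones. The 3 libraries of each genotype lay close together, and the groups did not overlap. The mean was 6.53 ± 0.73 FPKM in KO and 3.24 ± 0.36 FPKM in WT (SD, n = 3 each), and the log2 change was 0.83 ± 0.25 (SE) with an adjusted p of 0.21. Of its 101-nt windows, 3.37% are shared with Fcgr2b, the inhibitory IgG receptor, so fragments could be split between these relatives. Fcgr2b itself was at 8.09 ± 1.28 FPKM in KO and 3.81 ± 0.74 FPKM in WT (SD, n = 3 each, adjusted p = 0.16).

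Fcer1g, the common gamma chain that Fcgr3 needs at the surface, was at 11.6, 18.2 and 19.3 FPKM in the mixed, male and female KO pools, against 15.5, 13.5 and 10.8 FPKM in the WT ones. The KO mixed pool was below the WT mixed pool, at a ratio of 0.75, and the groups overlapped. Its log2 change was 0.26 with a 95% interval from -0.30 to 0.83. It was 0.48 without the KO mixed library, 0.18 without the KO male, 0.14 without the KO female and 0.13 without the WT female library. Tyrobp, or DAP12, the adapter of TREM2 and related receptors, was at 28.1, 35.6 and 45.9 FPKM in the mixed, male and female KO pools, against 26.2, 33.7 and 25.4 FPKM in the WT ones. The mixed and male pools hardly differed, at ratios of 1.07 and 1.05, and the female pools differed by 1.81. Its log2 change was 0.33 with a 95% interval from -0.19 to 0.86, and it was 0.50 without the KO mixed and 0.16 without the KO female library.

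Itgam, the integrin chain CD11b of the complement receptor CR3, was the least abundant of the 10. It was at 2.04, 1.84 and 1.78 FPKM in the mixed, male and female KO pools, against 1.92, 1.75 and 0.76 FPKM in the WT ones. The WT female library alone stood apart, and the log2 change of 0.25 had a 95% interval from -0.30 to 0.81. Without that library the change was 0.025, and without the WT mixed library it was 0.39. Of its 101-nt windows, 71.0% are shared with the gene model Gm49368 of release M21. Whether the annotation used on build mm9 held that model is not given, and an effect on the level of Itgam was not tested.

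**Figure D2:**
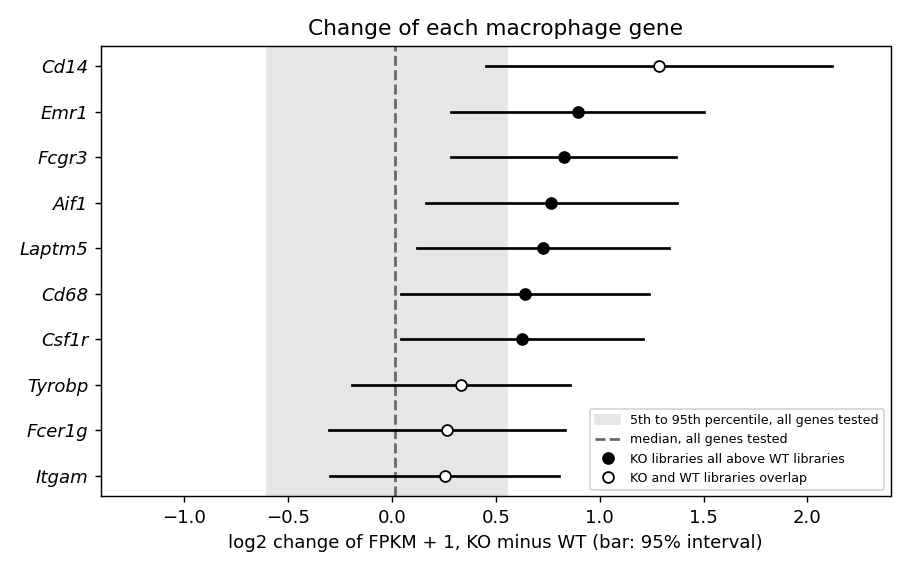
Log2 change of FPKM + 1, KO minus WT, with the 95% interval of limma for each macrophage gene, beside the median and the 5th to 95th percentile of all 15067 genes. The points run from 0.25 for Itgam to 1.29 for Cd14, and the intervals of Tyrobp, Fcer1g and Itgam reach below 0.

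By mean level, Tyrobp stood first in both genotypes, at 36.5 ± 8.96 FPKM in KO and 28.4 ± 4.62 FPKM in WT (SD, n = 3 each). In KO the order continued with Cd14, Laptm5, Fcer1g, Cd68, Csf1r, Fcgr3, Aif1, Emr1 and Itgam. In WT it was Cd14, Fcer1g, Laptm5, Cd68, Csf1r, Fcgr3, Aif1, Emr1 and Itgam. Neighbours from Tyrobp down to Csf1r overlapped in KO, whereas in WT Tyrobp lay above every Cd14 value. In both genotypes every Fcgr3 value lay below every Csf1r value. Fcgr3, Aif1 and Emr1 overlapped as neighbours in KO. Itgam lay below every Emr1 value in KO and overlapped Emr1 in WT.

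Shares within the set were described without a test. Tyrobp held 22.2, 27.1 and 25.6% of the summed FPKM of the 10 genes in the mixed, male and female KO pools, against 29.6, 29.6 and 36.2% in the WT ones, with no overlap. Cd14 held 15.6 to 25.5% of the sum in KO libraries and 8.91 to 21.6% in WT libraries, which overlapped. Set against Csf1r in the same library, no other member had KO ratios all above or all below the WT ratios. Cd68 was at 1.11 ± 0.02 times Csf1r in KO and 1.12 ± 0.25 times in WT (SD, n = 3 each). Emr1 per Itgam was 1.68, 3.27 and 2.44 in the mixed, male and female KO pools, against 1.05, 1.52 and 1.77 in the WT ones, which overlapped.

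The same libraries were low or high for most of the 10 genes. The KO female library was the highest in 7 of the 10 genes, and the WT female library the lowest in 9. Across all genes tested the KO female library was the highest in 31.1% and the WT female library the lowest in 55.6%. Both held at once in 6 of the 10 genes and in 18.4% of all genes, and over all genes the WT mixed library was the most often highest, in 45.3%. The summed FPKM of the 10 genes was 126, 131 and 179 in the mixed, male and female KO pools, against 88.4, 114 and 70.1 in the WT ones. The sums did not overlap, with means of 146 ± 29.1 in KO and 90.9 ± 22.2 in WT (SD, n = 3 each).

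Within each kind of pool the 10 genes were set beside all genes. In the mixed pools their median ratio of KO to WT was 1.41, where the median gene was at 0.82. In the male pools it was 1.27 against 0.84 for the median gene, and in the female pools 2.595 against 1.51. Relative to the median gene, the median member was thus 1.73, 1.505 and 1.72 times as high in the mixed, male and female pools. KO was above WT in all 3 kinds of pool for 8 of the 10 genes, where 13.4% of all genes were so. The exceptions were Cd14 in the male pools, at a ratio of 0.83, and Fcer1g in the mixed pools. Without both female pools the median log2 change of the 10 genes was 0.32, against -0.23 for all genes, and 6 of the 10 still did not overlap, where 9.48% of all genes did not. The shared shift between libraries was not the same in each pool, and its part in the single changes was not tested beyond these values. With every library scaled to the same median, the median log2 change of the 10 was 0.65 and 0 were called.

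**Figure D3:**
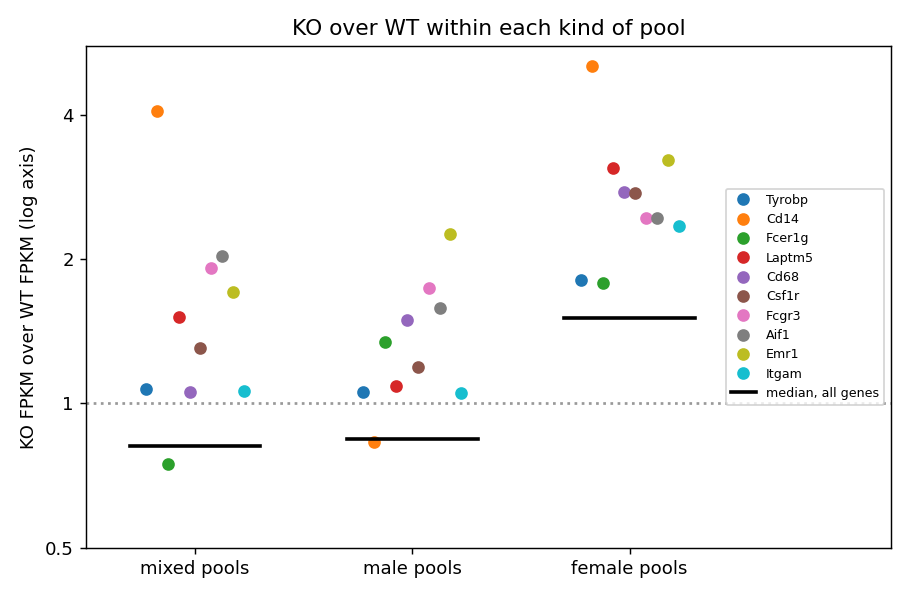
KO FPKM over WT FPKM (log axis) for each macrophage gene within the mixed, male and female pools, with the median of all genes as a black bar. The members lie above the bar except Fcer1g in the mixed and Cd14 in the male pools, and the bar itself is at 0.82, 0.84 and 1.51.

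Among genes of the pathways these members belong to, none passed over all genes in any of the following 5 lists. Of 14 listed growth factors, receptors and transcription factors of macrophages, 13 were found. Spi1, the gene of PU.1, was not found under that symbol. All 13 had a positive log2 change, with a median of 0.43. Csf2, which encodes GM-CSF, was at 2.12 ± 0.72 FPKM in KO and 0.52 ± 0.40 FPKM in WT (SD, n = 3 each, adjusted p = 0.10). Irf5, a transcription factor of inflammatory macrophages, was at 3.03 ± 0.53 FPKM in KO and 1.51 ± 0.41 FPKM in WT (adjusted p = 0.34). Among the ligands of the CSF1 receptor, Csf1 was at 4.02, 3.71 and 4.65 FPKM in the mixed, male and female KO pools, against 3.05, 3.59 and 2.34 FPKM in the WT ones. Il34 was at 2.71, 2.88 and 4.21 FPKM in the same KO libraries, against 1.56, 2.25 and 2.68 FPKM in the WT ones. For both ligands the lowest KO value was above the highest WT value, with adjusted p of 0.88 and 0.79.

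Of 9 tested Fc receptors and partners of the adapters, 9 had a positive change, with a median of 0.37. Clec7a, the beta-glucan receptor Dectin-1, was at 3.84 ± 0.89 FPKM in KO and 1.16 ± 0.46 FPKM in WT (SD, n = 3 each, log2 change 1.17 ± 0.26 SE, adjusted p = 0.068). Trem2, a partner of Tyrobp, was at 3.46, 2.36 and 7.33 FPKM in the mixed, male and female KO pools, against 2.37, 2.18 and 2.50 FPKM in the WT ones, and these overlapped. Of 11 listed kinases and effectors below the adapters, 10 were found, and Syk was not found under that symbol. Those 10 had a median change of 0.31, all positive. Vav1, a signalling protein of blood cells, was at 3.55 ± 0.62 FPKM in KO and 1.61 ± 0.55 FPKM in WT (SD, n = 3 each, adjusted p = 0.25).

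Partners of Cd14 and Itgam came next. Of 8 tested genes around the lipopolysaccharide receptor, 8 had a positive change, with a median of 0.40. Lbp, the lipopolysaccharide-binding protein, was at 66.6 ± 18.0 FPKM in KO and 39.4 ± 15.2 FPKM in WT (SD, n = 3 each, adjusted p = 0.37). Ly86, which encodes MD-1, was at 7.16 ± 0.77 FPKM in KO and 4.05 ± 1.15 FPKM in WT (adjusted p = 0.37). Tlr4 had a log2 change of 0.33 with a 95% interval from -0.22 to 0.88. The 8 genes of beta2 integrins, their ligands and activators were all positive, with a median of 0.48. Itgb2, the beta chain that pairs with Itgam, was at 4.39, 4.67 and 5.12 FPKM in the mixed, male and female KO pools, against 2.61, 3.37 and 1.69 FPKM in the WT ones, with no overlap (adjusted p = 0.36). Itgax, or CD11c, was at 2.06 ± 0.46 FPKM in KO and 0.94 ± 0.28 FPKM in WT (adjusted p = 0.33).

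Close relatives of the members that other cells also express stood nearer to the median gene. The 7 tested had a median log2 change of 0.10, with 6 positive and 0 called. The lysosomal Lamp1 and Lamp2 had changes of 0.04 and 0.01, and Laptm4a and Laptm4b, relatives of Laptm5, had 0.10 and -0.15. Kit, a receptor kinase related to Csf1r, was at 3.48 ± 0.24 FPKM in KO and 2.20 ± 0.54 FPKM in WT, and Cd97, a relative of Emr1, was at 7.73 ± 1.31 FPKM in KO and 5.31 ± 1.53 FPKM in WT (SD, n = 3 each, adjusted p = 0.64 and 0.74).

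Markers of macrophage subtypes were uneven. Of 9 tested markers of resident macrophages, 8 were positive and 0 called, with a median of 0.40. The complement genes C1qc and C1qa had log2 changes of 0.90 and 0.77 (adjusted p = 0.16 and 0.33). Mertk, a receptor for the uptake of dying cells, was at 1.64 FPKM on average in KO and 1.503 FPKM in WT. Of 10 tested genes of alternative activation, Retnla and Chi3l3 rose, 0 fell and the median was 0.64. Retnla, a resistin-like secreted protein, was at 11.4 ± 4.65 FPKM in KO and 0.12 ± 0.11 FPKM in WT (SD, n = 3 each, log2 change 3.39, adjusted p = 3.7e-04). Chi3l3, a chitinase-like protein also called Ym1, was at 23.9 ± 9.08 FPKM in KO and 4.601 ± 2.24 FPKM in WT (log2 change 2.18, adjusted p = 0.015). Tgm2, a transglutaminase, and Mrc1, the mannose receptor, had changes of 0.91 and 0.44 (adjusted p = 0.22 and 0.70). Of 5 tested genes of classical activation 0 were called, with a median of 0.37. Il1b among them was at 7.68, 4.35 and 6.48 FPKM in the mixed, male and female KO pools, against 1.10, 4.41 and 1.45 FPKM in the WT ones. The male pools were nearly level for Il1b, while the mixed and female pools were higher in KO.

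**Figure D4:**
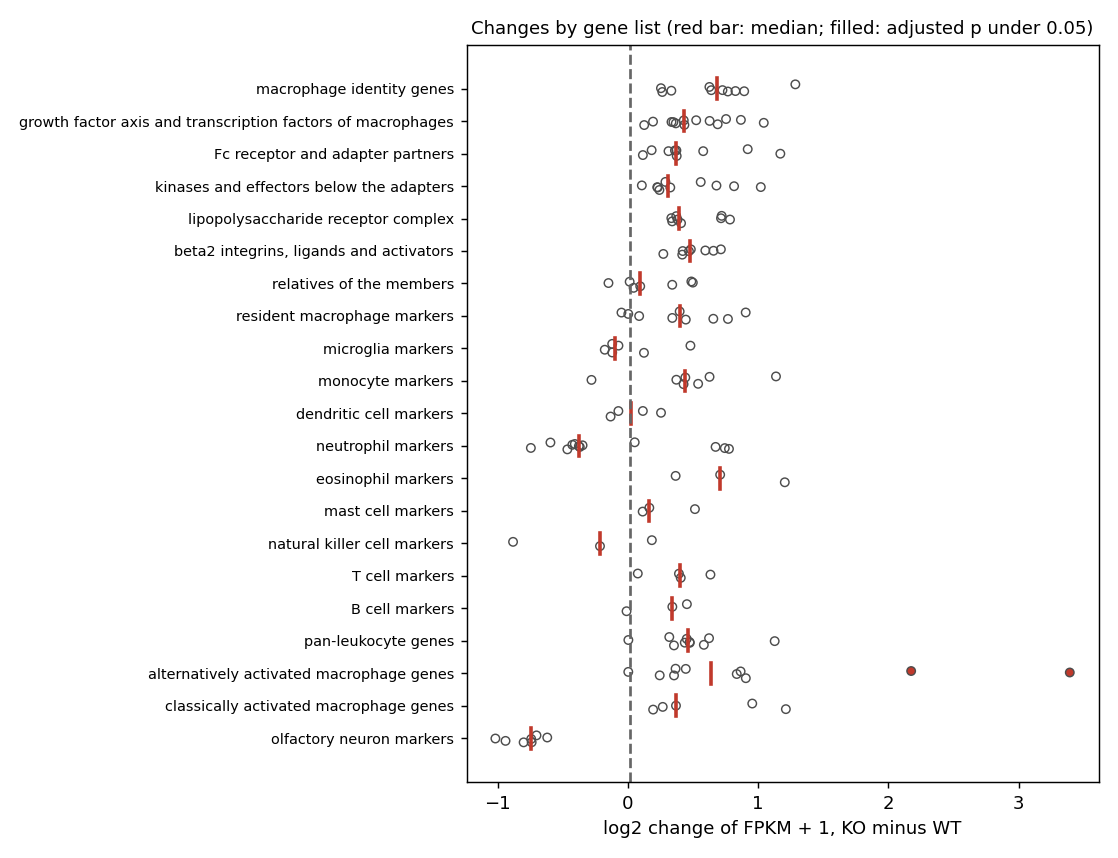
Log2 changes of FPKM + 1, KO minus WT, of the tested genes of each list (circles, with those past the threshold filled), list medians as red bars and the median of all genes as a dashed line. The macrophage identity genes have a median of 0.68 and the olfactory neuron markers of -0.74, and the only filled circles are Retnla and Chi3l3.

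Several of the 10 genes are also used by other leukocytes, so markers of those cells were read in the same libraries. None of these lists had a called gene. The pan-leukocyte list, with 10 of 10 positive, had a median of 0.46, and its sum ran from 125 to 159 FPKM in KO libraries and from 83.6 to 128 FPKM in WT libraries. Its named members Cd52 and Rac2 had log2 changes of 1.13 and 0.62 (adjusted p = 0.11 and 0.46). The sum of the 10 macrophage genes was 0.93 to 1.12 times that of the pan-leukocyte list in KO libraries and 0.84 to 0.89 times in WT libraries, which did not overlap. Such sums are weighted by their most abundant genes. Lcp1, the most abundant of the pan-leukocyte list, was level, at 42.6 FPKM on average in KO and 42.9 FPKM in WT. Cd14, whose groups overlapped, weighs on the other sum. The ratio thus does not show that macrophage genes rose beyond leukocyte genes in general. Csf1r per Ptprc, the common leukocyte antigen CD45, was 2.39, 2.68 and 4.89 in the mixed, male and female KO pools, against 2.92, 3.12 and 3.11 in the WT ones, with overlap.

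Neutrophils, which also carry Itgam, Fcer1g and Tyrobp, gave a median of -0.37 over 12 markers, 8 of them negative. Their sum was 220 to 452 FPKM in KO libraries and 253 to 461 FPKM in WT libraries. Of the 4 positive ones, Il1r2 and Mmp9 had log2 changes of 0.78 and 0.67 (adjusted p = 0.24 and 0.40). Monocyte markers had a median of 0.44 over 7 genes, with sums of 77.1 to 91.8 FPKM in KO libraries and 39.7 to 84.0 FPKM in WT libraries. Among these Ly6c1 had a log2 change of 0.63 and Chi3l1 of 1.14 (adjusted p = 0.42 and 0.60). Of the 6 microglia markers 2 were positive, with a median of -0.10. Tmem119 had a change of 0.48 ± 0.25 and Gpr34 of -0.18 ± 0.23 (SE), and the sums were 71.7 to 98.8 FPKM in KO libraries and 67.5 to 80.8 FPKM in WT libraries.

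Eosinophil markers had a median of 0.71 over the 3 tested of 6, with Alox15 at 1.20 and Prg2 at 0.71 (adjusted p = 0.088 and 0.89). Prg2 was higher in KO in the male pools, at a ratio of 11.2, but lower in the mixed and female pools, at 0.73 and 0.82. The sum of the list was 47.9 to 84.9 FPKM in KO libraries and 21.7 to 38.2 FPKM in WT libraries. Most of it was Alox15, at 56.7 FPKM on average in KO and 23.5 FPKM in WT, beside mean sums of 66.1 and 28.8 FPKM. Of the defining genes, Epx was at most 0.60 FPKM in any library, and Il5ra was listed at 0 in all but the KO mixed library. Mast cells, the other main users of Fcer1g, had 3 of 7 markers tested, with a median of 0.17. Hdc was at 24.3 ± 5.99 FPKM in KO and 22.3 ± 4.23 FPKM in WT (SD, n = 3 each), Ms4a2 was listed at 0 in all 6 libraries, and the summed levels were 21.9 to 33.3 FPKM in KO libraries and 18.7 to 26.2 FPKM in WT libraries. Tpsb2 and Cpa3, mast cell proteases, were low but higher in KO, at 0.78 ± 0.35 and 0.61 ± 0.43 FPKM in KO and 0.24 ± 0.21 and 0.21 ± 0.17 FPKM in WT (SD, n = 3 each). Every KO value of Tpsb2 lay above every WT value (adjusted p = 0.50), and Cpa3, below the filter, was higher in KO in all 3 kinds of pool. The proteases Mcpt4 and Cma1 overlapped between genotypes. Mcpt4 averaged 0.70 FPKM in KO and 0.50 FPKM in WT, and Cma1, below the filter, 0.32 and 0.29 FPKM. The KO to WT ratio of Mcpt4 was 1.53 (mixed), 5.47 (male) and 0.55 (female). That of Cma1 was 0.93 (mixed), 0.54 (male) and 1.66 (female).

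The lymphoid and dendritic lists were low. Natural killer markers summed to 3.66 to 5.11 FPKM in KO libraries and 4.18 to 8.20 FPKM in WT libraries, and 3 of 7 were tested, with a list median of -0.21. Eomes, with a log2 change of -0.88 (adjusted p = 0.30), made up most of the WT sum, at 2.06 FPKM in KO and 4.74 FPKM in WT on average. Of the other tested markers, Nkg7 was lower in KO, at 0.55 FPKM on average against 0.79 FPKM in WT. Gzma was higher, at 0.89 against 0.69 FPKM. Klrb1c, Klrd1 and Ncr1, receptors of these cells below the filter, had higher means in KO. These were 0.35, 0.37 and 0.30 FPKM in KO and 0.065, 0.11 and 0.10 FPKM in WT. None of these receptors had any signal in the mixed WT pool. There 1 fragment per kb equals about 0.286 FPKM, more than each of these WT means, and the receptors were not tested. T cell markers, 4 of 8 tested, summed to 4.88 to 6.81 FPKM in KO libraries and 2.52 to 4.38 FPKM in WT libraries, with a median of 0.40, Cd3g at 0.63 (adjusted p = 0.42) and Trat1 listed at 0 throughout. B cell markers, 3 of 6 tested, summed to 5.06 to 8.34 FPKM in KO libraries and 4.30 to 4.83 FPKM in WT libraries, with a median of 0.34 and Cd79b and Cd79a at 0.45 and 0.34 (adjusted p = 0.73 and 0.93). Dendritic cell markers, 4 of 9 tested, summed to 7.69 to 9.48 FPKM in KO libraries and 6.15 to 11.5 FPKM in WT libraries, with a median of 0.02 and Zbtb46 and Cd209a at -0.13 ± 0.32 and -0.07 ± 0.24 (SE). The part of these cells in the levels of the 10 genes was not tested.

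The 7 olfactory neuron markers all had a negative log2 change, with a median of -0.74 and 0 called. Their sum in KO was 0.40 times that in WT in the mixed pools and 0.41 times in the male pools. In the female pools it was 1.08 times, and there the sum of the macrophage genes differed most, at 2.56 times. The median ratio over all genes was also highest there, at 1.51, against 0.82 (mixed) and 0.84 (male). The neuron sum lay below this median in each kind of pool. Relative to the same median, the median macrophage gene was no higher in female pools (1.72) than in mixed ones (1.73), with 1.505 in male ones. Stoml3 and Cnga2, of the cilia of mature neurons, had changes of -1.02 and -0.94 (adjusted p = 0.28 and 0.17). FPKM are shares of a library, so a lower share of neuronal transcripts raises the share of other transcripts, and the part of this in the macrophage genes was not tested.

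The 8 genes whose profile over the 6 libraries was most like the mean profile of the 10 were picked from 12392 genes that averaged 2 FPKM or more. Likeness was the root-mean-square distance between centred log2(FPKM + 1) profiles. They were Cnp, Trp73, Rab15, Hexim1, Ccdc19, Itgb2, Cyth4 and Ampd3, at distances of 0.03 to 0.07. Cnp, the nearest, was at 14.8, 16.8 and 19.5 FPKM in the mixed, male and female KO pools, against 10.9, 13.3 and 8.55 FPKM in the WT ones. None of the 8 was called in limma (adjusted p = 0.31 to 0.43). Their choice by likeness over the same libraries sets their changes near those of the 10, so this is not a separate result. Of the 8 only Itgb2 stood in a list used here, and the single members lay 0.09 (Csf1r) to 0.55 (Cd14) from their own mean profile.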

How the data were processed

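Total RNA of pooled olfactory epithelia was column-purified and treated with DNase, and the libraries were normalised with duplex-specific nuclease, per the labels' protocols. That enzyme lowers abundant transcripts and compresses their levels. The deposited table holds 1 FPKM value per gene symbol and library, made by the authors with TopHat2 2.0.7, Bowtie, Cufflinks 1.3.3 and Cuffdiff on build mm9, per the submitters' processing notes. The unit was read from the header's form, the values and these programs. The sources used here give no annotation, strandedness or settings. Columns that name a sex match sample titles in full, so the column naming none was taken as the mixed pool of its genotype.

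Of 22310 rows, 429 repeats of a symbol were left out by keeping the row of highest mean, and no macrophage gene was on several rows. The 15067 genes that averaged 0.5 FPKM or more were tested as log2(FPKM + 1) with limma 3.58.1 in R 4.3.3, KO against WT, its prior variance trended on mean level, with 4 residual degrees of freedom. All 10 macrophage genes passed this filter. A log2 change on this scale understates that of low genes. Since every library is a pool, p-values reflect how pools vary and not how mice vary.

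The macrophage genes, the other lists and the tests were chosen with earlier results of these data known. Besides the 10, genes were named by rule: those past the threshold, up to 2 further per list (those of smallest p among genes that averaged 1 FPKM or more), and the 8 nearest profiles. A gene that this rule names is not reported here. Other genes of the lists (Csf1, Il34, Trem2, Tlr4, Mertk, Lamp1, Lamp2, Laptm4a, Laptm4b, Ptprc, Lcp1, Epx, Il5ra, Ms4a2, Trat1, Klrb1c, Klrd1, Ncr1, Nkg7, Gzma, Tpsb2, Cpa3, Mcpt4 and Cma1) were picked with their values in view. Depth was estimated from the spacing of low FPKM times length (GENCODE M21, single transcripts of at least 1200 nt less 150 nt) and is approximate. The values of the 10 genes then rest on about 6 to 189 fragments in the mixed and 17 to 761 in the other libraries.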

Additional observations from a re-analysis of the deposited data

Results flagged for a closer look

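For 2 of the macrophage genes, KO and WT stood in the opposite order in 1 kind of pool to that in both others. Cd14 in KO was 0.83 times its WT level in the male pools, and 4.08 and 5.07 times in the mixed and female pools. Fcer1g in KO was 0.75 times its WT level in the mixed pools, and 1.35 and 1.78 times in the male and female pools. With 1 library per genotype in each kind of pool, the difference of 1 kind from the others was not tested. The model of genotype by female share gave an adjusted p of 0.56 for Cd14 and of 0.78 for Fcer1g in limma. Mixed pools stand midway in that linear term, so it cannot show their departure from both others, as with Fcer1g.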

How the results depend on the processing

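Over 19 alternatives, the 189 changes of single macrophage genes all stayed positive, and 186 kept their side of the threshold. Their size moved more: leaving out 1 library shifted those of Laptm5, Fcer1g, Tyrobp and Itgam by over 1.5 times, down to 0.025 for Itgam without the WT female library. Without both female pools they were 0.29 for Csf1r, 0.30 for Cd68, 0.82 for Cd14, 0.34 for Laptm5, 0.086 for Tyrobp, 0.052 for Itgam and 0.0065 for Fcer1g. Itgam was at 0.43 with a pseudocount of 0.1, Fcer1g at 0.59 without both mixed pools, and Itgam has no value with a minimum mean of 2 FPKM. The 3 that crossed it were of Cd14, which passed without the WT mixed library (adjusted p = 0.034), without the WT male library (0.024) and with kind of pool as a replicate block (0.0092). The number of the 10 genes past the threshold was thus 1 with the replicate block, and 0 to 1 with each library left out, against 0. Over all alternatives the adjusted p of Cd14 ran from 0.0092 to 0.59. The block rests on labels of sex, not on a shared animal or batch. Deviations of same-pool libraries correlated at 0.36 (mixed), 0.21 (male) and -0.09 (female), and the KO male library correlated best with the WT female one.

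The median change of the 10 ran from 0.48 to 0.82 with each library left out, and was 0.32 without both female pools, an alternative chosen after seeing the data. The median over all genes ran from -0.14 to 0.13 with each library left out, and was -0.23 without both female pools. The number of the 10 without overlap was 6 to 8 with each library left out. In those fits 8.22 to 14.2% of all genes had every KO library above every WT library, against 7.46% with all 6 libraries.

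Counts over all genes, 32 higher and 94 lower, moved more. They were 12 and 18 without the filter (more genes tested), 93 and 177 after quantile normalization, 72 and 193 with libraries scaled to the same median, 150 and 290 with the replicate block, 67 and 142 with female share as a term, and 150 and 198 without both mixed pools. Without both female pools 18 were higher. With 1 library left out they ran from 15 to 184 higher and from 25 to 453 lower. They were 19 and 25 without the KO mixed, 15 and 25 without the KO female, 184 and 249 without the WT mixed and 89 and 453 without the WT female library, and lower genes were 61 without the KO male and 40 without the WT male library. The cause was not tested. The replicate block changed no other call among the 10. The shallow mixed pools limit the low genes most: Aif1 rests there on about 13 fragments in KO and 6 in WT.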
